A study of Homo sapiens with 6 samples.

Results

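The comparison set the 3 arrays of an H358 line carrying YAP(5SA) against the 3 arrays of an H358 line carrying GFP, within each of 3 treatments. All 6 of the 6 arrays of the series took part, and each array was placed by its sample title. H358 is an established human bronchioalveolar carcinoma cell line. YAP(5SA) is a form of YAP in which the serines that the LATS kinases phosphorylate are replaced, and GFP is the green fluorescent protein that served as control. The 6 groups were the GFP line with vehicle, with IL-1b and with TNFa, and the YAP(5SA) line with the same 3 agents, each for 60 min. Both cytokine doses are labelled 10 g/ml, which is not a plausible unit. Each group held 1 array. The promoter that drives the transgenes, the number of clones behind each line and the number of cultures are not stated by the labels. With 1 line of each kind, the transgene and anything else in which the lines differed cannot be told apart.

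YAP is a transcriptional co-activator at the end of the Hippo pathway. The kinases LATS1 and LATS2 phosphorylate it and hold it in the cytoplasm, and unphosphorylated YAP enters the nucleus and binds TEAD factors at the promoters and enhancers of genes for growth, the cytoskeleton and the extracellular matrix. In the lung, YAP takes part in airway and alveolar cell fate and in the repair of injured epithelium. Further transcription factor systems recur below: NRF2, which drives genes of detoxification through antioxidant response elements, and the interferon-activated transcription factors, which bind interferon-stimulated response elements.

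Levels are log2 of the deposited probe intensity plus 16, and a difference is the YAP(5SA) level minus the GFP level, averaged over the 3 pairs. A gene is called higher or lower where limma's adjusted p was under 0.05. Values of a line are given in the order vehicle, IL-1b, TNFa. YAP1 itself stood at 12.91, 12.88 and 12.46 in the GFP line and at 11.67, 12.31 and 12.08 in the YAP(5SA) line. The lines did not overlap, and the probe was lower in the line labelled YAP(5SA), with a difference of -0.73 (SE 0.21, adjusted p = 0.012). That call was lost when either the vehicle or the IL-1b pair was left out. The labels do not say where in the transcript the probe lies, so it checks nothing about the transgene. WWTR1, which encodes the YAP paralogue TAZ, differed by -0.33 (adjusted p = 0.331).

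Promoter windows are shown for 5 genes on which the results below turn, because each holds the letters of a motif bound by a factor named above. The windows come from RefSeq (GRCh38.p14), cover 250 bases before to 50 after the annotated start, and are written 5′ to 3′ on the gene's strand with the matched letters in capitals. The TEAD letters were GGAATG, the interferon letters (ISRE) GAAANNGAA and the antioxidant letters (ARE) TGACNNNGC, each searched on both strands. ANKRD1 and CCN2 are YAP-TEAD targets, IFI27 and MX1 are interferon-induced genes, and GPX2 is an NRF2 target.
ANKRD1: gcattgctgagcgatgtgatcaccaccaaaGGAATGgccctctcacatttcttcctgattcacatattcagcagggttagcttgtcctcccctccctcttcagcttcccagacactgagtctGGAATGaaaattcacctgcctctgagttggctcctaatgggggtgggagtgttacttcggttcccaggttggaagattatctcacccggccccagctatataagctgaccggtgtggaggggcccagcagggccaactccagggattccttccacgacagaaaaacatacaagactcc
CCN2: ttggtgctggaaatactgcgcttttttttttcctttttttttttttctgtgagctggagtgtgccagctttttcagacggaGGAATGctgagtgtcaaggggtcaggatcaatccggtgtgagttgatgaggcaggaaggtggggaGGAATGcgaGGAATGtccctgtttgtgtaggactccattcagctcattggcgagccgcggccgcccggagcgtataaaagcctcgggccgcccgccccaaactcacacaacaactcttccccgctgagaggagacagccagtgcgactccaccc
IFI27: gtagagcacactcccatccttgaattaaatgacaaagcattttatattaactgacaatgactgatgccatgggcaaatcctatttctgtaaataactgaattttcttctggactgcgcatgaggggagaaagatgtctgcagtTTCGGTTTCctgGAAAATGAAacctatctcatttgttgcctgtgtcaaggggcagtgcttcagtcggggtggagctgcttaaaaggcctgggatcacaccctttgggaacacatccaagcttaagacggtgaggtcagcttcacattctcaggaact
MX1: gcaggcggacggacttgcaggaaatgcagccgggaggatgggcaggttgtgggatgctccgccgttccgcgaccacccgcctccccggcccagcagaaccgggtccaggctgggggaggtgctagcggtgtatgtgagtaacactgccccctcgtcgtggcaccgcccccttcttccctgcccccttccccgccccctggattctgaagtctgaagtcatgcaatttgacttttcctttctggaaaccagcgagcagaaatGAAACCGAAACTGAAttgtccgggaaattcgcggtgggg
GPX2: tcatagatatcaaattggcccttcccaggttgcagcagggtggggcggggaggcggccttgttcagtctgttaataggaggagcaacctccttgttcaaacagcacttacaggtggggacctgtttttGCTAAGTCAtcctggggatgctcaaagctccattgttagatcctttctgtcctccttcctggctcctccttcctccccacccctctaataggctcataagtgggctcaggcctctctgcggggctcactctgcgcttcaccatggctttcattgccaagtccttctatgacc
The ANKRD1 window at chr10:90921038-90921337 (minus strand) has TEAD matches beginning at -220 and -128 from the start, and the CCN2 window at chr6:131951323-131951622 (minus strand) has them at -169, -104 and -95. The IFI27 window at chr14:94110486-94110785 (plus strand) has ISRE matches at -107 and -95, and the MX1 window at chr21:41420308-41420607 (plus strand) has overlapping ones at 11 and 17 after the start. The GPX2 window at chr14:64942696-64942995 (minus strand) has its ARE match at -122.

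Among the genes tested, 10058 of 12350 had a promoter window. The TEAD letters lay in 10.9% of all windows, in 13.2% of those of genes called higher, in 10.3% of those called lower and in 7 of 22 windows (31.8%) of the classic YAP-TEAD list. Among the 100 largest differences per direction the order was reversed, with 14.0% of those called higher and 17.0% of those called lower. The ISRE letters lay in 6.65% of all windows, in 5.63% of those called higher, in 9.49% of those called lower and in 22 of 30 windows (73.3%) of the interferon-induced list. With a further A required at the 3′ end of the motif, these ISRE shares were 2.99% of all windows, 6.25% of those called lower and 70.0% of the interferon-induced list. The ARE letters lay in 15.0% of all windows, in 14.5% of those called higher, in 13.1% of those called lower and in 7 of 19 (36.8%) of the NRF2 list. The AP-1 letters TGANTCA lay in 4.83% of all windows, 7.16% of those called higher and 6.60% of those called lower. The lists hold genes long studied for such sites, so these shares describe the lists and are no test.

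The lines differed at many genes, in both directions and in every treatment. Of 12350 genes tested, the YAP(5SA) line had 976 called higher (7.90%) and 1101 called lower (8.91%). The counts of each gene list below are to be read beside these shares. Of these calls 47.0% were higher, a share of 59.7% when each array was centred on its median instead (1430 higher, 964 lower). Among these calls 408 higher and 499 lower genes differed at least 2-fold, and 10 higher and 23 lower genes at least 16-fold. In 98 of the genes called higher the GFP mean lay under the limit for dim probes, 7.79, and in 149 of those called lower the YAP(5SA) mean did. Such genes passed the filter through the line in which they were high, and the size of their difference depends on the added 16. No fold is given for any single gene of this kind, and their log2 differences and adjusted p-values below carry the same limit. ANKRD1, DLC1, ITGB2, L1CAM, FGF1 and NTS are among them. The sign was the same in all 3 pairs for 2042 of the 2077 called genes (98.3%). Over all genes tested, 22.5% were higher and 21.4% lower in all 3 pairs. In 13.8% the lowest YAP(5SA) array lay above the highest GFP array, and in 14.4% the highest YAP(5SA) array lay below the lowest GFP array. The median difference of all genes was -0.012, made of -0.100 in the vehicle pair, -0.072 in the IL-1b pair and 0.167 in the TNFa pair. Across genes, arrays of the same line correlated at 0.970 to 0.986 (Pearson's r) and arrays of different lines at 0.933 to 0.956, as a description in which genes are not independent.

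Each pair had the same weight in the difference, but the calls changed unequally when a pair was left out. Leaving out the IL-1b pair left 497 genes higher and 526 lower, and 49.1% of the calls were made again, against 81.0% without the vehicle pair and 82.8% without the TNFa pair. Where leaving out a pair moved the count of a gene list by more than 1.5 times, that count is given beside it. A further probe of the same gene was bright enough to compare for 218 genes called higher, and 196 of them (89.9%) had the same sign. For genes called lower it was 230 of 242 (95.0%), and over all 2833 genes with a further probe it was 68.4%.

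**Figure D1:**
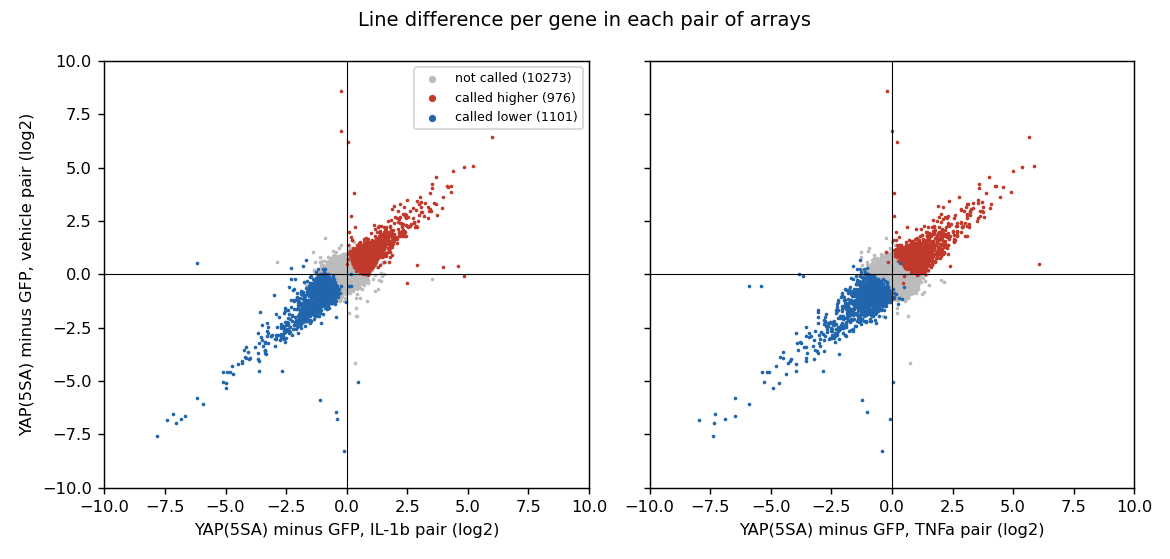
Difference of each tested gene, YAP(5SA) minus GFP in log2 units, in the vehicle pair (vertical axis of both panels) against the IL-1b pair (left) and the TNFa pair (right), 1 point per gene. The 976 genes called higher (red) and 1101 called lower (blue) lie mostly along the diagonal, and a few rest on the vehicle pair alone.

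The labelled cell type was checked against its markers. Of 10 epithelial markers, 5 lay above the filter on dim probes, with KRT18 at 16.62 to 17.78 and CDH1 at 12.45 to 14.70 over the 6 arrays. EPCAM, an epithelial adhesion protein, was dim, at 7.11 to 8.66, and CLDN4, CLDN7, ESRP1, GRHL2 and KRT19 fell below the filter. KRT19 was at 7.73 to 8.11 in the GFP line and, lower in every pair, at no more than 5.73 in the YAP(5SA) line. EPCAM was called lower (-1.03, adjusted p = 0.000447, a call lost without the IL-1b pair). The summed intensity of the epithelial markers, in which KRT18 is the brightest, was 144100 to 189800 in the GFP line and 255000 to 309200 in the YAP(5SA) line, without overlap, so the markers did not move together. Fibroblast markers summed to 2066 to 2630 against 1727 to 2295, with 3 of 10 above the filter. Endothelial markers summed to 993.3 to 1472 against 1251 to 1390, with 3 of 8 above the filter. Leukocyte markers summed to 8199 to 9204 against 5142 to 6787, with 6 of the 9 that had a probe above the filter. The sum was lower in the YAP(5SA) line, but 2 of the 6 measured markers were lower in all 3 pairs and 1 was called. CD14, at 11.82, 11.72 and 11.43 against 9.96, 9.97 and 10.21, was the member that differed most, and PTPRC, the common leukocyte antigen, stood under 6 on every array. CD3D, at 11.08 to 11.53, and CD68, at 10.3 to 10.9 over the 6 arrays, were bright in both lines and not called. The part of the leukocyte markers in the results below was not tested. In these bulk samples fewer cells of a type and less RNA per cell cannot be told apart.

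Classic YAP-TEAD targets were higher in the YAP(5SA) line as a list. Of 29 measured members 22 were called higher and 1 lower, with a median difference of 0.781 beside -0.012 for all genes. Without the IL-1b pair 12 were called higher. ANKRD1, a stretch-responsive ankyrin repeat protein, stood at 6.96, 6.58 and 6.09 in the GFP line and at 9.91, 9.70 and 9.30 in the YAP(5SA) line. All YAP(5SA) arrays lay above all GFP arrays, a difference of 3.09 (SE 0.20, adjusted p = 4.9e-15) over GFP arrays in the dim range. CCN1 and CCN2, the matricellular proteins most often used to read YAP activity, moved less. CCN1 stood at 13.08, 12.31 and 12.24 against 13.89, 13.41 and 13.82, a difference of 1.16 (SE 0.21, adjusted p = 4.88e-05). CCN2 differed by 0.68 (SE 0.21, adjusted p = 0.017), and its call was lost without the IL-1b pair and without the TNFa pair.

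The rise in this list ranged from secreted proteins to regulators of YAP itself. FSTL1, a secreted follistatin-like glycoprotein, stood at 13.16, 13.30 and 12.75 against 16.09, 16.37 and 16.50, 9.52-fold higher. DLC1 stood at 7.54, 7.28 and 7.76 against 12.09, 10.99 and 11.76, a difference of 4.09 (SE 0.21, adjusted p = 4.24e-18) over GFP arrays in the dim range. The receptor tyrosine kinase AXL was higher by 2.02 and its ligand GAS6, which is on the coagulation list, by 1.76. LATS2 (1.68) and PTPN14 (1.43), which both restrain YAP, were higher as well. The exception was EDN1, the vasoconstrictor endothelin-1, which stood at 13.97, 14.08 and 14.47 against 12.48, 12.67 and 12.66 and was lower by 1.57 on the log2 scale (adjusted p = 1.49e-07).

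Some genes of the actin cytoskeleton were called in each direction. LIM domain proteins, many of which sit on stress fibres and focal adhesions, had 9 of 30 measured members called higher and 2 lower, with a median of 0.213. Without the IL-1b pair the counts were 5 and 1. LIMA1, which cross-links actin filaments, stood at 9.45, 9.76 and 9.19 against 12.61, 13.10 and 12.94, with no overlap between lines and a difference of 3.42 (SE 0.21, adjusted p = 4.58e-16). PDLIM2 (2.68), FHL2 (1.59) and TES (1.10) were also higher. PDLIM5, a scaffold of the Z-disc and of stress fibres, went the other way, at 13.87, 13.53 and 13.73 against 11.49, 11.11 and 11.28.

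The myosin list had 2 of 18 called higher and 2 lower (11.1% each, near the shares of all genes), and 1 higher without the TNFa pair. MYO10, the motor of filopodia, fell by 1.67 and the non-muscle heavy chain MYH9 rose by 0.72, a call lost without the IL-1b pair, without which no myosin was called higher. Annexins, which bind membranes in a calcium-dependent way, had 4 of 9 called higher and 1 lower, and 2 higher without the IL-1b pair. ANXA8 (2.84) and ANXA3 (1.30) were higher and ANXA4 (-1.06) was lower.

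**Figure D2:**
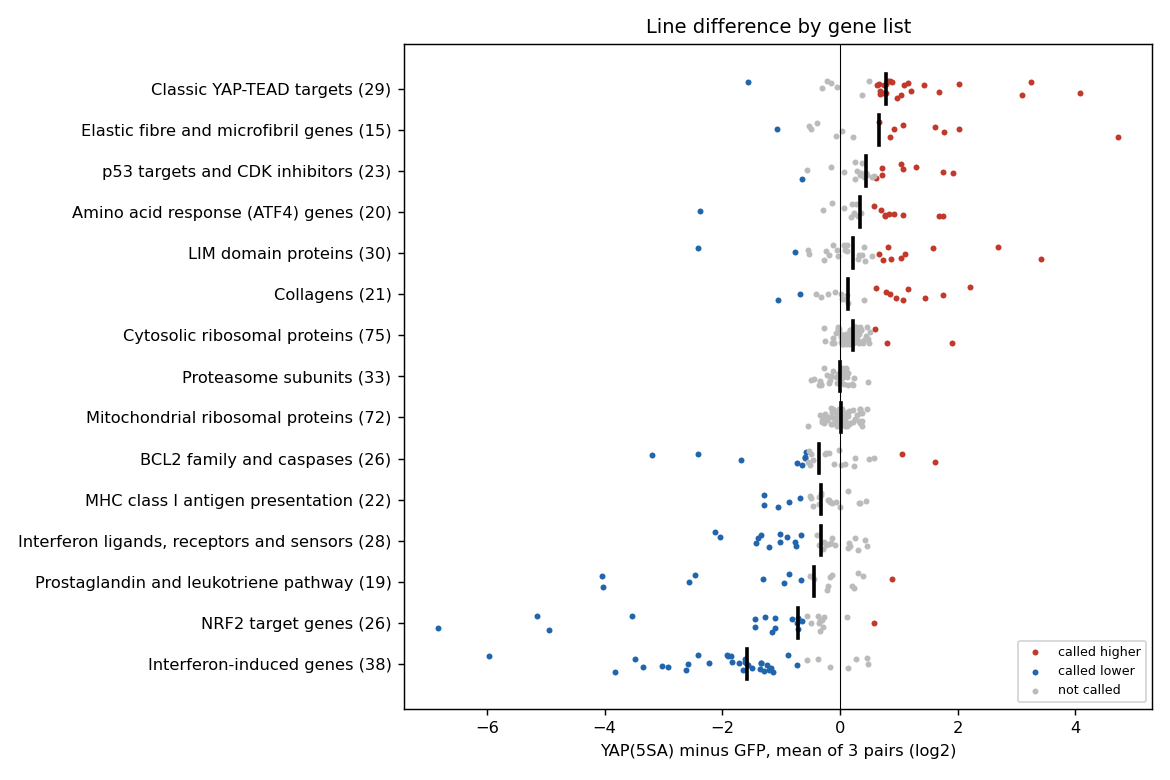
Difference of each measured member of 15 gene lists, YAP(5SA) minus GFP in log2 units as the mean of 3 pairs, with 1 point per gene, the number measured in brackets and a black bar at the list's median. The medians run from 0.781 for YAP-TEAD targets to -1.579 for interferon-induced genes, while proteasome subunits and mitochondrial ribosomal proteins lie around 0.

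Extracellular matrix genes differed in both directions. Elastic fibre and microfibril genes had 8 of 15 measured members called higher and 1 lower, with a median of 0.656 (0.388 to 0.790 with a pair left out), and 7 or 8 were called higher whichever pair was left out. Without the TNFa pair 3 were called lower. MFAP5, a microfibril glycoprotein, stood at 9.24, 9.36 and 8.73 in the GFP line and at 14.07, 13.75 and 13.71 in the YAP(5SA) line, a gap of more than 4 log2 units between the nearest arrays and a 26.6-fold difference (adjusted p = 2.66e-20). The fibulins EFEMP1 (2.03) and FBLN1 (1.76), the fibrillins FBN2 (1.61) and FBN1 (1.07) and the cross-linking enzyme LOXL2 (0.91) were higher. LTBP1, which anchors latent TGF-beta to microfibrils, was lower (-1.08).

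Collagens had 9 of 21 called higher and 2 lower, with a median of 0.144 (0.261 to 0.294 with a pair left out) that changed sign when dim probes were kept. Without the IL-1b pair 5 were called higher and 1 lower, and without the vehicle pair 1 was lower. The chains of the basement membrane network COL4A1 (1.16), COL4A2 (0.96, a call lost without the IL-1b pair) and COL4A4 (2.20) were higher, as was the fibrillar chain COL5A1 (1.44), whereas its partner chain COL5A2 was lower (-1.05). None of 5 measured laminins was called by limma, and none had an unadjusted p under 0.05.

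Matricellular and proteoglycan genes held some of the largest differences in each direction. Of 22 members 7 were called higher and 4 lower, and 4 and 2 without the IL-1b pair. SPP1, the secreted phosphoprotein osteopontin, stood at 13.91, 14.00 and 14.66 against 9.35, 9.19 and 9.30. The 3 YAP(5SA) arrays lay more than 4 log2 units below the nearest GFP array, a 30.2-fold difference (adjusted p = 1.35e-20). VCAN, the large chondroitin sulfate proteoglycan versican, stood at 12.91, 12.69 and 13.07 against 8.34, 7.74 and 7.99. In the opposite direction SDC2, a cell surface heparan sulfate proteoglycan, was higher by 2.77 and SPOCK1, a secreted proteoglycan, by 1.98.

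Among proteases and matrix receptors, MMP7 was far lower in the YAP(5SA) line. This small metalloproteinase of secretory epithelia stood at 13.20, 13.57 and 13.17 in the GFP line and at 6.23, 6.51 and 5.85 in the YAP(5SA) line, a difference of -7.12 (adjusted p = 1.07e-25) against arrays in the dim range. MMP9, a gelatinase, was higher (1.39). The metalloproteinase list as a whole had 2 of 13 called higher and 1 lower (15.4% and 7.69%), or 3 lower without the TNFa pair. Integrins had 4 of 22 called higher and 3 lower (18.2% and 13.6%), with 1 lower without the IL-1b pair and 5 without the TNFa pair. ITGB2 (2.35) and the hemidesmosomal ITGB4 (1.12) were higher and the vitronectin receptor subunit ITGB5 was lower (-1.34).

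Several genes of secretory and lung epithelium were lower. In the mucous secretion list 4 of 17 measured members were called lower and 1 higher, a call lost without the IL-1b pair and without the TNFa pair. AGR2, a disulfide isomerase needed for mucin folding, stood at 12.49, 12.56 and 11.98 against 5.68, 5.15 and 4.0. The last value is the floor of the scale, where the deposited intensity was at or below 0, so the size of the difference depends on the added 16. CEACAM6, an adhesion protein of epithelial surfaces, stood at 11.65, 11.61 and 11.30 against 5.09, 4.44 and 4.0, again with the TNFa array at the floor. It was the 1 called member of 6 measured CEACAM genes, and 2 were called without the TNFa pair. The protease inhibitor SLPI (-2.09), the trefoil peptide TFF1 (-1.57), the siderophore-binding LCN2 (-2.31) and the calcium-binding S100P (-2.50) were lower.

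Lung lineage genes had 5 of 14 measured members called lower, 3 without the IL-1b pair, and 1 higher, a call lost whichever pair was left out. SOX2, a factor of airway progenitors, stood at 10.50, 10.35 and 10.46 against 7.31, 6.71 and 6.55. SOX9, which marks distal lung progenitors, stood at 11.28, 11.88 and 11.86 against 9.33, 9.88 and 9.71. With SOX4 (-1.70) these were the 3 of 6 measured SOX factors called, all lower and all kept whichever pair was left out. FOXA2, a factor of endodermal epithelia, was lower by 0.85 on the log2 scale, a call lost without the IL-1b pair, and the lysosomal LAMP3 of alveolar type II cells was lower (-1.36). ELF3, an epithelial ETS factor, stood at 12.95, 13.57 and 13.12 against 8.40, 10.92 and 10.26, with no overlap and a wide spread within the YAP(5SA) line.

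Cell junction genes did not move one way. In the adherens and desmosomal list 2 of 16 were called higher and 1 lower (12.5% and 6.25%), or 2 lower without the TNFa pair. CDH1, the epithelial cadherin, stood at 12.57, 12.45 and 12.94 in the GFP line and at 14.70, 14.05 and 14.15 in the YAP(5SA) line, so it was higher by 1.65 (SE 0.21, adjusted p = 1.12e-07). The desmosomal PKP2 was higher (1.19) and plakoglobin, JUP, was lower, at 12.08, 11.88 and 11.96 against 9.44, 9.48 and 9.45. Tight junction and polarity genes had 5 of 19 higher and 4 lower, and 2 and 1 without the IL-1b pair. CGN (1.72) and PALS1 (1.34) were higher. Claudins had 2 of 9 called lower, 1 without the vehicle pair and none with the IL-1b pair left out. None was called higher by limma, nor at an unadjusted p under 0.05, but 1 was called higher without the TNFa pair.

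The list of EMT transcription factors and mesenchymal genes had 6 of 16 called higher and none lower by limma, with 1 lower at an unadjusted p under 0.05. Its median of 0.347 changed sign when dim probes were kept. Among keratins of simple epithelia that passed the filter, KRT18 differed by 0.63, a call lost without the IL-1b pair and without the TNFa pair, KRT7 by 0.52 (adjusted p = 0.0788) and KRT8 by 0.58 (adjusted p = 0.0518). The squamous keratin KRT4 was lower (-1.75), as were the tetraspanin TSPAN13 (-2.37), the gap junction protein GJB2 (-1.69) and AQP3, a water and glycerol channel of airway epithelium, at 12.64, 12.43 and 12.19 against 8.49, 8.10 and 7.90.

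Some genes for proteins secreted into plasma were lower and others higher. FGL1, a fibrinogen-like protein, stood at 13.43, 13.45 and 13.24 against 8.32, 8.48 and 8.59. FGA, the fibrinogen alpha chain, stood at 10.43, 10.47 and 11.04 against 6.58, 6.28 and 6.41, and APOH, an apolipoprotein of plasma, at 9.93, 10.00 and 10.17 against 6.31, 5.92 and 5.68. In each the lines lay several log2 units apart. TM4SF4, a four-span membrane protein of liver and gut epithelia, was lower by 3.96 on the log2 scale. Complement and coagulation genes had 8 of 24 called lower and 6 higher, with a median of -0.372 (-0.539 to -0.106 with a pair left out). C5 (-1.93), C3 (-1.55), CFD (-1.69) and the chaperone CLU (-2.31) were lower, as was the thrombin receptor F2R (-2.49). GAS6, the anticoagulant PROS1 (1.47) and the urokinase receptor PLAUR (1.53) were higher.

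Serpins, inhibitors of serine proteases, had 5 of 10 called lower and none higher by limma, nor any higher at an unadjusted p under 0.05, and 3 lower without the IL-1b pair. Without the TNFa pair 1 was called higher. SERPINA3, the acute phase antichymotrypsin, stood at 7.90, 12.08 and 10.85 in the GFP line and at 6.12, 8.52 and 7.81 in the YAP(5SA) line. The cytokine arrays were above the vehicle array in both lines, and the lines overlapped until compared within a treatment. Its call was lost when treatment was left out of the fit.

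NRF2 target genes were lower as a list. Of 26 measured members 15 were called lower and 1 higher, and the median was -0.712. In all 3 pairs 23 were lower, beside 21.4% of all genes. GPX2, a glutathione peroxidase of epithelia, stood at 13.21, 13.26 and 13.44 in the GFP line and at 6.45, 6.42 and 6.55 in the YAP(5SA) line. The arrays within a line differed by less than 0.3 and the lines by -6.83 on the log2 scale (adjusted p = 1.83e-25), with the YAP(5SA) arrays in the dim range. OSGIN1 (-1.44) and EPHX1 (-1.44), an epoxide hydrolase, were lower. GCLC, the catalytic subunit of glutathione synthesis, was the member called higher (0.58, adjusted p = 0.0457), a call lost whichever pair was left out. FTL, the ferritin light chain and among the brightest probes, differed by 0.12 (adjusted p = 0.772).

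The aldo-keto reductases on this list were among the brightest probes of the GFP line. AKR1C1 stood at 17.55, 17.58 and 17.52 against 12.51, 12.47 and 12.23, a 35.5-fold difference (adjusted p = 1.4e-21). AKR1B10, which reduces retinal and other aldehydes, stood at 17.12, 16.83 and 17.38 against 12.55, 11.74 and 12.22. AKR1C3, which reduces steroids and prostaglandins, stood at 18.10, 17.93 and 18.07 against 14.42, 14.54 and 14.56. Probes of AKR1C1 and AKR1C3 can share signal, since these genes are related in sequence, so their separate values are uncertain. These 3 were the called members of 6 measured aldo-keto reductases.

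Other detoxification families were lower more often than higher. Aldehyde dehydrogenases had 4 of 16 called lower, 2 without the IL-1b pair, and 1 higher, a call lost without the vehicle pair. ALDH3A1, which oxidises aromatic aldehydes, stood at 15.17, 15.05 and 15.75 against 11.99, 11.70 and 11.95, and ALDH2 was lower by 2.32 on the log2 scale. Cytochromes P450 had 6 of 26 called lower and 1 higher, which was lost without the IL-1b pair. CYP1A1 (-2.24) and CYP1B1 (-1.30), both induced by the aryl hydrocarbon receptor, and CYP24A1 (-1.46), which degrades vitamin D hormone, were lower. Glutathione transferases and peroxidases had 5 of 22 called lower, 3 without the IL-1b pair and 8 without the TNFa pair, and none higher by limma, nor any at an unadjusted p under 0.05. ABC transporters had 8 of 26 called lower, 5 without the IL-1b pair, and 2 higher, 1 without the vehicle or the TNFa pair. The multidrug and organic anion pumps ABCC1 (-1.11), ABCC2 (-1.10) and ABCC3 (-1.10) were lower and ABCA1, which exports cholesterol, was higher (0.99).

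Genes at several steps from membrane phospholipid to prostaglandin were lower. Of 19 measured members of the prostaglandin and leukotriene list 8 were called lower and 1 higher, with a median of -0.438. PLA2G4A, the cytosolic phospholipase that releases arachidonic acid, stood at 11.97, 11.57 and 11.95 against 8.02, 7.55 and 7.78. PTGS2, the inducible cyclooxygenase, stood at 15.63, 17.31 and 17.40 in the GFP line and at 11.12, 13.70 and 13.42 in the YAP(5SA) line. Its level was above vehicle with both cytokines in both lines, and the lines did not overlap, with a difference of -4.04 (SE 0.21, adjusted p = 6.45e-18). The synthases PTGES (-1.31) and TBXAS1 (-2.56) and the degrading enzyme HPGD (-2.47) were lower too. PTGER4, a receptor for prostaglandin E2, was the member called higher (0.89), a call lost without the vehicle pair.

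**Figure D3:**
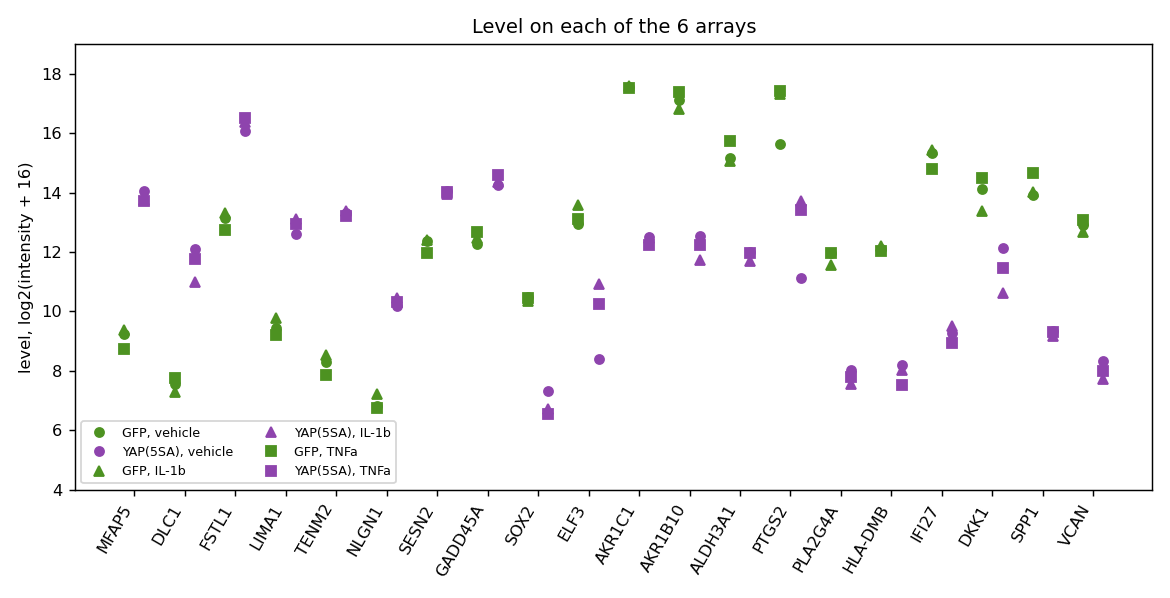
Level of 20 named genes on each array as log2(intensity + 16), with green for the GFP line, purple for the YAP(5SA) line and the marker shape for the treatment. None of the genes shown has overlapping lines, and the arrays of a line lie farthest apart for PTGS2 and ELF3.

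Interferon-induced genes were lower as a list in the YAP(5SA) line, with vehicle as well as with either cytokine. Of 38 measured members 31 were called lower, 29 to 32 whichever pair was left out, with a median of -1.579. In all 3 pairs 32 were lower, beside 21.4% of all genes. None was called higher by limma, 2 were higher at an unadjusted p under 0.05, and 1 was called higher without the vehicle pair. IFI27 stood at 15.33, 15.43 and 14.80 against 9.26, 9.51 and 8.92, a 62.2-fold difference (adjusted p = 1.15e-23). MX1, a dynamin-like antiviral GTPase, stood at 12.99, 13.07 and 12.91 against 10.08, 9.97 and 10.14, and IFITM1, which blocks viral entry, at 14.07, 13.95 and 13.87 against 10.15, 9.95 and 10.34. In all of these the arrays within a line lay close together and the lines apart.

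Some genes of interferon production and signalling were lower. Of 28 measured interferon ligands, receptors and sensors 12 were called lower, 7 without the IL-1b pair, and none higher by limma, with 2 higher at an unadjusted p under 0.05. The DNA sensor IFI16 (-2.13), the RNA sensor TLR3 (-1.42) and the transcription factors IRF7 (-2.03) and IRF9 (-1.40) were lower. IFNL2, a type III interferon, stood at 12.37, 12.88 and 11.92 against 10.08, 11.81 and 11.26, and IFNL3 differed by -1.21. IFNL2 and IFNL3 are near-identical copies and their separate values are uncertain.

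Some antigen presentation genes were lower, and most were not called. MHC class I genes had 5 of 22 called lower, 3 without the IL-1b pair, with a median of -0.325. In all 3 pairs 12 were lower, beside 21.4% of all genes. None was called higher by limma, with 1 at an unadjusted p under 0.05, and 1 was called higher without the TNFa pair. The activator of class I transcription NLRC5 (-1.28), HLA-F (-1.28), HLA-C (-1.04) and the peptide transporter TAP1 (-0.86, a call lost without the IL-1b pair) were lower. HLA genes share sequence, so a probe of HLA-C or HLA-F can read its relatives. MHC class II genes had 4 of 9 called lower and none higher by limma, nor any higher at an unadjusted p under 0.05. HLA-DMB, a chaperone of peptide loading, stood at 12.10, 12.20 and 12.02 against 8.20, 8.03 and 7.53. The lysosomal enzymes CTSS (-1.91) and IFI30 (-1.72), which prepare antigens, were lower with it. The values of CD14 and the sums of the leukocyte markers are given above.

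Death genes of the BCL2 family and caspases had 8 of 26 called lower, 3 without the IL-1b pair, and 2 higher. BCL2L15 stood at 10.57, 10.55 and 10.07 against 7.35, 7.18 and 7.07, and the death receptor caspase CASP10 at 9.89, 10.07 and 9.76 against 7.31, 7.64 and 7.56. The inflammatory caspase CASP4 was lower (-1.68). The members called higher were both BH3-only genes, HRK (1.62) and PMAIP1 (1.05).

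Some genes of the amino acid response driven by ATF4 were higher. Of 20 measured members 9 were called higher, 5 without the IL-1b pair, 1 lower and 10 not called, with a median of 0.333. SESN2, a leucine sensor that restrains mTORC1, stood at 12.38, 12.39 and 11.98 against 14.05, 13.94 and 14.01, with the YAP(5SA) arrays close together above all GFP arrays. VLDLR (1.68), NUPR1 (1.07), TRIB3 (0.92), ATF5 (0.83, lost without the IL-1b pair) and STC2 (0.77, lost without the vehicle pair) were higher. GDF15, a stress-induced secreted factor, was the exception, at 13.27, 13.94 and 14.22 against 11.60, 11.54 and 11.18.

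The p53 targets and CDK inhibitors had 8 of 23 called higher, 5 without the IL-1b pair, and 1 lower, 2 without the TNFa pair, with a median of 0.444. GADD45A, a stress-induced regulator of growth arrest, stood at 12.28, 12.47 and 12.68 against 14.24, 14.35 and 14.58. The death receptor FAS (1.29), CDKN1C (1.08) and TP53I3 (1.04) were higher and CDKN2D was lower (-0.65), a call lost without the IL-1b pair. ER chaperones and genes of the unfolded protein response had 5 of 27 called higher, 1 without the IL-1b pair, and 1 lower, or 2 lower without the TNFa pair. CRELD2 (1.24) and HERPUD1 (0.83, lost without the IL-1b pair) were higher.

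In metabolism, cholesterol synthesis genes had 4 of 16 called lower and none higher by limma, with 1 higher at an unadjusted p under 0.05. The count was 2 without the vehicle pair, 1 without the IL-1b pair and 2 without the TNFa pair. HMGCS1, which makes HMG-CoA, stood at 14.84, 15.11 and 14.53 against 13.43, 13.62 and 13.49, with no overlap. The calls of SQLE (-0.70), CYP51A1 (-0.69) and DHCR7 (-0.61) were each lost without at least 1 pair. The isocitrate dehydrogenases went opposite ways: IDH2 of the mitochondrion stood at 12.10, 12.30 and 11.44 against 13.46, 14.14 and 13.65, whereas IDH1 of the cytosol was lower by 0.89 on the log2 scale, a call lost without the IL-1b pair. Glycolysis genes had 3 of 21 called higher and 3 lower (14.3% each). PFKP, a phosphofructokinase, stood at 16.06, 11.61 and 14.10 against 16.44, 16.20 and 16.48, so its difference of 2.45 rests on low readings of the GFP arrays with cytokine.

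Genes of several signalling pathways were called. Of 12 measured Wnt targets and antagonists 5 were called lower and 1 higher, with a median of -0.303 that ranged from -0.710 to -0.093 with a pair left out. Without the TNFa pair 7 were called lower. DKK1, a secreted Wnt antagonist, stood at 14.12, 13.38 and 14.50 against 12.13, 10.61 and 11.46. The receptor LGR4 (-2.24), its ligand RSPO3 (-2.02), and RNF43 (-2.27) and ZNRF3 (-1.24), ubiquitin ligases that remove Wnt receptors, were lower. DKK3 was higher (1.34).

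Activin and BMP genes had 9 of 25 called lower, 5 without the IL-1b pair, and 2 higher. CHRDL1, a secreted BMP antagonist, rose from 5.25, 5.16 and 5.87 to 11.69, 11.18 and 11.53, a difference of 6.04 (adjusted p = 1.83e-23) over GFP arrays in the dim range. INHBB, the activin beta B subunit, stood at 13.27, 12.82 and 12.74 against 7.94, 7.83 and 7.84. BMP4 (-1.94), its receptor BMPR1B (-1.96) and ID4 (-1.57), a BMP target, were lower. Some other ID genes and the other measured BMP ligands were not called. In the TGF-beta list, with 5 of 19 called lower and 2 higher, or 2 and 1 without the IL-1b pair and 3 and 1 without the vehicle pair, PMEPA1 (-2.59) and the receptor TGFBR1 (-0.95, lost without the IL-1b pair) were lower.

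Notch genes had 5 of 18 called lower, 3 without the IL-1b pair, and 2 higher. The ligand JAG1 (-1.46), the receptors NOTCH1 (-1.13) and NOTCH3 (-1.25) and the target HES1 (-0.93, lost without the IL-1b pair) were lower. LFNG, a glycosyltransferase that modifies Notch, was higher, at 11.58, 11.04 and 11.04 against 14.21, 13.49 and 13.31, as was NOTCH2 (0.87). The NOTCH2 call was lost when all probes of a gene were averaged and when treatment was left out of the fit. In the EGF family, with 3 of 12 called higher and 1 lower, or 2 lower without the TNFa pair, the ligand HBEGF stood at 10.52, 11.46 and 10.65 against 12.54, 13.73 and 13.34. ERBB3 (1.13) and NRG1 (0.91, lost without the IL-1b pair) were higher and ERBB4 (-0.91, lost without the vehicle pair) was lower.

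In the IGF system 6 of 18 were called higher, 3 without the IL-1b pair, and 4 lower. The binding protein IGFBP7 (2.55) and the RNA-binding IGF2BP2 (1.57) were higher, while IGFBP2 (-1.32), the protease PAPPA (-1.53), the adaptor IRS1 (-1.20) and the insulin receptor INSR (-1.08) were lower. FGF and VEGF ligands had 3 of 21 higher and 4 lower (14.3% and 19%), 2 lower without the IL-1b pair. FGF1 (2.49), FGF2 (1.31) and PDGFC (1.70) were higher. PDGFD, a further ligand of the PDGF receptors, stood at 11.02, 10.99 and 10.97 against 7.93, 7.51 and 7.76.

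Feedback regulators of ERK and the phosphodiesterases also divided. MAP kinase phosphatases and ERK feedback genes had 6 of 20 higher and 6 lower, 2 lower without the IL-1b pair. DUSP22, a phosphatase acting on the JNK pathway, stood at 8.24, 8.57 and 7.92 against 11.89, 12.55 and 12.38. DUSP5 (1.28) was higher, and DUSP4 (-1.23) and DUSP16 (-1.42) were lower. Cyclic nucleotide phosphodiesterases had 4 of 14 lower and 2 higher, 1 higher without the vehicle or the IL-1b pair. PDE4B (-2.51) and PDE4D (-1.48), which degrade cyclic AMP, were lower and PDE11A was higher (1.88).

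Neuropeptide genes differed in both directions. NTS, the precursor of neurotensin, stood at 15.29, 15.32 and 15.39 in the GFP line and at 7.72, 7.50 and 8.01 in the YAP(5SA) line, a difference of -7.59 (adjusted p = 2.45e-26). Its YAP(5SA) mean lay under the limit for dim probes. The insulin-like peptide INSL4 (-3.19) and the granin CHGB (-2.15) were lower. KISS1, the kisspeptin precursor, was the opposite, at 8.60, 8.83 and 8.34 against 12.70, 13.02 and 12.91. The list had 5 of 17 called in each direction, with 3 higher without the vehicle or the IL-1b pair.

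Genes of adhesion and vesicle proteins best known from synapses were called often and in both directions. Of 25 measured members 6 were called higher and 9 lower, counts that include endocytic and vesicle genes such as AMPH and SNAP25. TENM2, a teneurin, stood at 8.29, 8.54 and 7.87 against 13.31, 13.38 and 13.23, a 33.7-fold difference, and NLGN1, a neuroligin, at 6.82, 7.20 and 6.75 against 10.17, 10.44 and 10.30. L1CAM (2.77) and CADM4 (2.46) were higher as well. FLRT3, a partner of latrophilins, stood at 12.18, 11.86 and 11.55 against 7.49, 7.17 and 7.17. NRCAM (-3.89) and SNAP25 (-1.79), a SNARE protein of vesicle fusion, were lower. Axon guidance genes had 9 of 35 called lower and 4 higher, 2 higher without the IL-1b pair. SEMA3A (-2.61), its co-receptor relative NRP2 (-1.86) and the ephrin receptor EPHA3 (-2.58) were lower, and SEMA3F (1.61) and SEMA7A (1.58) were higher.

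Transcription factors were called in several families. Forkhead factors had 6 of 26 higher and 4 lower, with FOXD1 (2.02) higher and FOXQ1 (-1.76) lower. Nuclear receptors had 7 of 26 lower, 3 without the IL-1b pair, and 2 higher, 1 without the IL-1b or the TNFa pair. NR5A2, a receptor of endodermal epithelia, stood at 12.36, 12.53 and 12.01 against 9.61, 9.95 and 9.72. ETS factors had 4 of 15 lower, 1 without the IL-1b pair, and 1 higher, ETS1, which stood at 11.36, 12.62 and 11.76 against 13.00, 14.00 and 13.73. KLF2 was higher (1.49). GATA3 was lower (-0.93), and its call and those of the 2 other GATA, HNF and CDX genes were lost without the IL-1b pair.

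Most lists of the machinery that every cell uses had few calls, while ER chaperones (above) had more. Aminoacyl-tRNA synthetases had 2 of 18 called higher (11.1%, near the 7.90% of all genes), none without the IL-1b pair and 1 without the TNFa pair. Proteasome subunits had 0 of 33 called by limma in either direction, with 1 higher and 2 lower at an unadjusted p under 0.05. Mitochondrial ribosomal proteins had 0 of 72, with 1 and 1 at an unadjusted p under 0.05 and 1 lower called without the TNFa pair. Respiratory chain subunits had 1 of 73 called lower, UQCRC1 (-0.76), a call lost without the IL-1b pair and without the TNFa pair, and 2 were called without the vehicle pair. Splicing factors had 2 of 71 called lower, none without the IL-1b pair, and 1 higher without the vehicle pair. The shares of these lists of subunits and factors lie under the 7.90% and 8.91% of all genes. Cytosolic ribosomal proteins had 3 of 75 called higher, 1 without the IL-1b pair and 1 without the TNFa pair. In all 3 pairs 31 were higher and 1 lower, beside 22.5% and 21.4% of all genes. Their median of 0.229 (0.130 to 0.310 with a pair left out) kept its sign under each alternative tried. By pair it was 0.021 with vehicle, 0.268 with IL-1b and 0.376 with TNFa. The medians of all genes were -0.100, -0.072 and 0.167. RPS19 stood out at 10.07, 9.73 and 9.43 against 11.54, 11.80 and 11.58, a value that near-identical processed copies of the gene make uncertain.

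Few DNA replication genes were called, while the mitosis calls higher and the histone calls lower were near the shares of all genes. DNA replication genes had 1 of 36 called higher, RRM1, which stood at 13.83, 15.77 and 16.13 against 16.57, 15.96 and 16.20. Its call rests on the low GFP vehicle array and was lost without the vehicle pair. Mitosis genes had 3 of 33 called higher (9.09%, beside 7.90% of all genes), 1 without the IL-1b pair and 1 without the TNFa pair. None was called lower by limma, nor was any lower at an unadjusted p under 0.05. Their median was 0.247, and it kept its sign under each alternative tried. In all 3 pairs 13 were higher and 2 lower, beside 22.5% and 21.4% of all genes. Histones, whose copies are near-identical, had 4 of 35 called lower (11.4%), 2 without the vehicle pair and none without the IL-1b pair, and none higher by limma, with 1 higher at an unadjusted p under 0.05. ANLN (0.62) and KIF2C (0.61), of cytokinesis and the spindle, lost their calls without the IL-1b pair and without the TNFa pair. FOXM1, a driver of mitotic genes, stood at 12.48, 12.32 and 11.97 against 14.70, 12.67 and 12.57, so that its difference of 1.06 rests on the YAP(5SA) vehicle array.

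**Figure D4:**
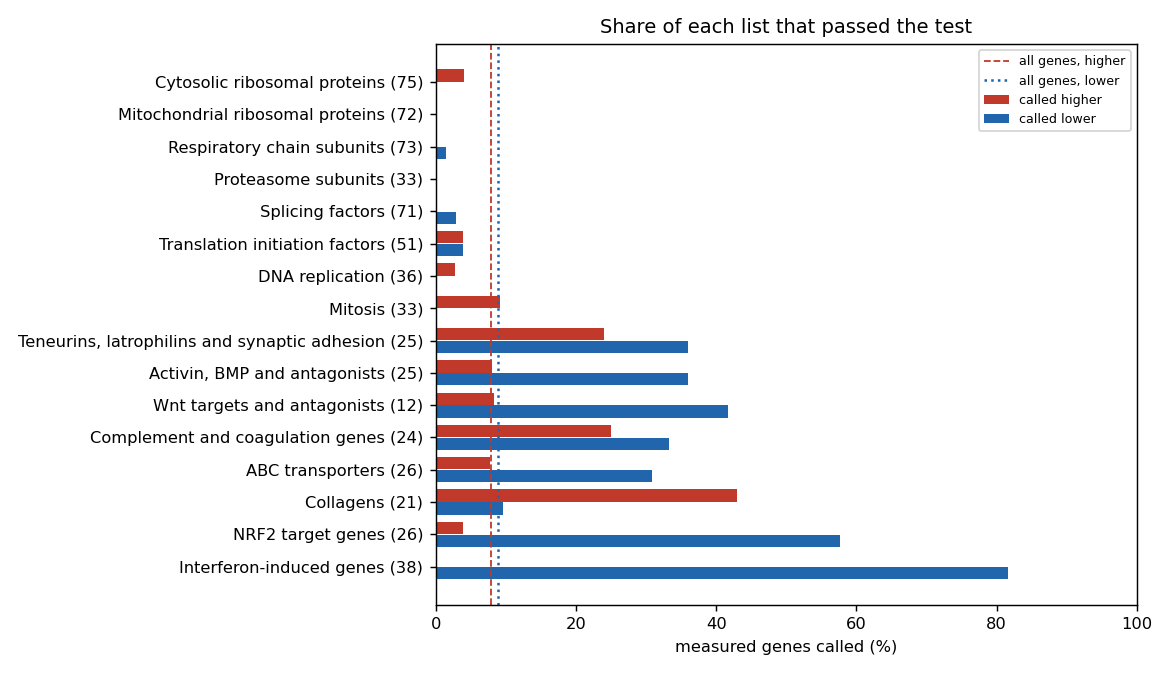
Percent of the measured genes of 16 lists called higher (red bars) or lower (blue bars) in the YAP(5SA) line, with the number measured in brackets and lines at the shares of all genes, 7.90% higher (dashed) and 8.91% lower (dotted). Proteasome and mitochondrial ribosomal genes have no bar, and interferon-induced genes have the longest.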

How the data were processed

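RNA of 6 samples was measured on 1-colour Cy5 arrays, 1 per line and treatment, after Trizol extraction and Eberwine-type amplification, per the labels' protocols. The authors deposited linear probe intensity values, in which 10 to 1146 values per array lie below 0. The median intensity per array was 335.2 to 398.1. No source used here names the background method or scaling, and the table has no detection calls.

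Of 28264 probes, 25893 named 1 gene (19090 genes) and 2371 named none. Values below 0 were set to 0, 16 was added and log2 taken, which understates folds of dim genes. The dimmest 40% of named probes were left out, and the brightest probe stood for its gene, leaving 12350 genes. limma 3.58.1 (R 4.3.3) fitted treatment plus line, with Benjamini-Hochberg adjustment at 0.05. The fit has 2 residual degrees of freedom and a prior of 34.3, and it assumes the same line difference under each treatment. No condition was repeated and nothing states separate cultures, so the variation over the 3 pairs may be technical. With this prior the p-values rest mostly on that variation pooled over all genes, and little on a gene's own spread. PFKP, for example, differed by 0.38, 4.59 and 2.37 in the 3 pairs, with an SE of 0.35. The number of arrays limits the precision. The code was tested on simulated data.

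Members, gene lists and motif letters were chosen with earlier results of these data known. Named genes were the 25 largest called differences per direction, up to 6 called members per direction and 2 bright uncalled members of each list, any member of a list with 12 or fewer measured genes, YAP1, WWTR1 and the marker genes. Lists are described by counts and medians, with no test of the list. Alternatives covered the scaling, the filter, the probe rule, the pseudocount, the prior, the treatment term and leaving out each pair. The letters of the ISRE motif were searched in 2 spellings, the second added after the first had been counted.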

Additional observations from a re-analysis of the deposited data

Results flagged for a closer look

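Among the 2371 probes with no gene in the annotation, which the comparisons above leave out, 23 were higher by at least 1 on the log2 scale in the YAP(5SA) line in all 3 pairs. In the other direction 37 were lower by at least 1 in all 3 pairs. Their mean differences reached 3.43 and -4.23. How many named probes pass the same rule was not counted, so these counts have no background to be read beside. The probes drew attention because they lie outside the named genes, and what they detect is not given in the sources used here.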

How the results depend on the processing

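With 1 pair left out, 497 to 931 genes were called higher and 526 to 1479 lower, against 976 and 1101. Without the TNFa pair 821 were higher and 1479 lower, so 35.7% of the calls were higher, against 47.0% in the full comparison. After median centring 1430 were higher and 964 lower (59.7% higher). With the dimmest 60% of probes left out, 694 were called higher and 689 lower among 8645 genes, since fewer genes were tested. With no replicate block, that is without the treatment term, 654 and 756 were called. Of 216 named genes that were called, 188 kept their call whichever pair was left out and 28 lost it at least once, 23 of them without the IL-1b pair. In the fit with no replicate block 21 named calls were lost. No named call changed sign in any alternative run. Of the genes low in one line and high in the other, the 3 high in YAP(5SA) became 0 and the 6 high in GFP became 2 at the stricter 30th and 85th percentiles. The ISRE letters with a further A lay in 2.99% rather than 6.65% of all windows, in 6.25% rather than 9.49% of those called lower, and in 70.0% rather than 73.3% of the interferon-induced list. The causes were not tested. The table has no detection calls, which limits what can be said of dim probes.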

Other observations

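A few genes went from the dim part of the arrays in one line to the bright part in the other. AMPH, an endocytic adaptor, JPH1, which ties the plasma membrane to the endoplasmic reticulum, and CHRDL1 lay under each array's 40th percentile of named probes in all 3 GFP arrays and above its 75th in all 3 YAP(5SA) arrays. JPH1 stood at 6.25, 5.94 and 5.48 against 11.35, 11.17 and 11.33. AGR2, CEACAM6, FLRT3, GPX2, MMP7 and THSD7A, a membrane protein with thrombospondin repeats, were the reverse. THSD7A stood at 12.72, 12.97 and 12.04 against 6.10, 6.30 and 5.55.

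Single glycan and lipid enzymes were called. Sialyl- and fucosyltransferases had 1 of 15 higher and 2 lower (6.67% and 13.3%), 1 lower without the IL-1b or the TNFa pair. Heparan and chondroitin sulfate enzymes had 5 of 30 higher and 4 lower (16.7% and 13.3%). For all genes the shares were 7.90% and 8.91%. UGT8, which makes galactosylceramide, was higher by 2.01 and ST3GAL5, which makes the ganglioside GM3, was lower by 1.99 on the log2 scale. NDST1, which sulfates heparan, was higher by 1.77. Of the potassium channel genes 8 of 33 were called higher, 3 without the IL-1b pair, and 3 lower, 1 without the IL-1b pair and 5 without the TNFa pair, with KCNQ3 higher by 1.73.

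Grouped by chromosome, the median difference ran from -0.107 on chromosome 7 to 0.084 on chromosome 5.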
